A study of Mus musculus with 4 samples.

Results

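The secreted and membrane-bound matrix metalloproteases (MMPs), the ADAMTS proteases with their ADAMTS-like relatives, and the tissue inhibitors of metalloproteases (TIMPs) were followed in stromal and bone-forming cells sorted from mouse long bones. Members were all genes whose symbol begins with Mmp, Adamts, Adamtsl or Timp followed by a number and that had at least 20 UMIs (unique molecular identifiers, each standing for 1 captured RNA molecule) over the first lane of both groups. Of 50 such symbols, 36 reached this level, out of 32286 features in all and 14688 features that reached it. They were 14 Mmp, 14 Adamts, 4 Adamtsl and 4 Timp genes. The lowest member was Mmp15 with 24 UMIs and the highest symbol below the limit had 8, and 3 of the 14 symbols left out had none.

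All animals were C57BL/6J mice that carry a tetracycline transactivator in place of 1 copy of Tnfsf11, which encodes the osteoclast-inducing cytokine RANKL, with the LC1 transgene for Cre and a Rosa26 LSL-tdTomato reporter, so that cells with past or present activity of the Tnfsf11 locus carry tdTomato. Doxycycline was given from the start of gestation to birth to suppress labelling in the fetus. Animals of the immobilized group entered a hindlimb immobilization of 2 weeks at 8 weeks of age, and the control group was not immobilized. Both groups were harvested at 10 weeks, live CD45.2-Ter119-tdTomato+ cells of femurs and tibias of both limbs were pooled from 4 control and 6 immobilized animals, and 1 pool per group was run on the 10x 3' platform and deposited as 2 lanes.

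There is 1 pool per group, so no difference between the groups was tested, no p-value is given, and the 95% intervals below cover counting error only. The lanes of a group differed by less than the sampling noise (mean chi-square per gene 0.534 and 0.586) and were counted as 1 sample, and UMI numbers are averages of both lanes and need not be whole. After filtering, 1411 control and 1394 immobilized cells remained, with medians of 5576.5 and 5706.5 UMIs per cell, and 3 barcodes occurred in both groups. The pools hold cells of both sexes, by Xist and Y-linked transcripts, and 70.6% of the control and 58.1% of the immobilized cells with a call were female. The number of animals of each sex is not in the labels. A tdTomato UMI was detected in 30.9% (control) and 34.3% (immobilized) of the kept cells. Although CD45.2+ and Ter119+ cells were sorted out, 69 control and 109 immobilized cells clustered as granulocyte-like, erythroid-like or B lineage-like, and a tdTomato UMI was present in 1.45% and 1.38% of them. Ptprc, which encodes CD45, had a UMI in 75.4% and 53.7% of them.

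MMPs are zinc proteases that cut collagens, gelatin and many other matrix and surface proteins, and the ADAMTS enzymes cut proteoglycans such as aggrecan and versican or trim procollagens, while the TIMPs bind and block the catalytic sites. In bone, collagenase 3 (Mmp13) is known from hypertrophic cartilage, osteoblast lineage cells and osteocytes, is induced by parathyroid hormone through AP-1 and RUNX factors, and takes part in resorption and perilacunar remodelling. Lepr+ CAR cells are marrow stromal cells rich in CXCL12, which support blood formation and can give rise to bone-forming cells.

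Mmp13 was by far the most abundant member, with 27763 lane 1 UMIs against 16071 for Mmp16, the next, and the 250 bases upstream of its annotated start are shown because they hold the letters of motifs that are known for this gene. The sequence is from the RefSeq promoter table of GRCm38.p6. Capitals mark the match to an AP-1-type motif (TGANTCA), which begins 35 bases before the start, and the match to a RUNX-type motif (AACCACA), which begins 119 bases before it.
Mmp13 (chr9:7272264-7272513, plus strand): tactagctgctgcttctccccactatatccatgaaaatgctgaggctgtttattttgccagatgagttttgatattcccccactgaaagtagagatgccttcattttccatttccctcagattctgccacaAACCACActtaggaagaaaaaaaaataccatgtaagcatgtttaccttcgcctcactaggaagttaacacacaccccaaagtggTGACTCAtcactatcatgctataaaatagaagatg
Both strands were searched, and the 2 motifs share no bases here. Over 32851 promoter entries, windows of this length held the AP-1-type letters in 6.75%, the RUNX-type letters in 4.40% and both in 0.344%. Of the 24 members with an entry, Mmp13 was the only one with the AP-1-type letters, Mmp13 and Mmp27 had the RUNX-type letters, and an ETS-type motif (AGGAAGT, in 7.69% of all windows) was present for Mmp13, Mmp8, Timp1 and Timp4. A match describes letters and does not show binding.

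Among the features, Mmp13 lies at one end of a run of 9 Mmp genes on chromosome 9 (mm10, between positions 7272514 and 7699585), and for 7 of them a RefSeq promoter entry holds the AP-1-type letters. Mmp genes that are not among the features, such as Mmp1a, were not counted. For Mmp12 this is a second entry that lies inside the gene, and the entry at its annotated start has no match. The matching stretches are printed with their flanking bases, for genes that differ widely in level here. The likeness of the motifs is set by the search pattern, in which only the middle letter is free. Each runs 5′ to 3′ on its gene's strand, with the motif in capitals.
Mmp13 (chr9:7272468-7272496, plus strand): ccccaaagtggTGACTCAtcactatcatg
Mmp12 (chr9:7347319-7347347, plus strand): gacatcaacagTGAGTCAgatagaggatt
Mmp1b (chr9:7388102-7388130, minus strand): gttacaaagccTGAGTCAtatagcctctg
Mmp3 (chr9:7445765-7445793, plus strand): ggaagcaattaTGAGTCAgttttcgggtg
Mmp10 (chr9:7502268-7502296, plus strand): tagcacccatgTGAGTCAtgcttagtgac
Mmp20 (chr9:7628125-7628153, plus strand): catttgagacaTGAATCAtcacttacagg
Mmp7 (chr9:7692016-7692044, plus strand): aagtgtgcaaaTGAGTCAcctatttccac
Besides Mmp13, the run held 2 members, the neutrophil collagenase Mmp8 with 343 lane 1 UMIs and Mmp27 with 111, and neither had the AP-1-type letters in its window. The other 6 genes, all with the letters in an entry, had between 0 and 8 UMIs. The letters thus occurred in entries of the most abundant member and of genes that were hardly detected.

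Cells were clustered without the member genes and named from markers, which gave osteoblast-like cells (419 control and 308 immobilized), Lepr+ CAR stromal-like cells (617 and 358), osteo-primed stromal-like cells with Wif1, Limch1, Postn and Tnc (214 and 360), and an unnamed cluster 5 (51 and 156) led by Pdzd2, Fat3, Smpd3 and Mmp16. These 4 sets were compared between the groups. Other sets were too small to compare: the cycling cluster 14 (27 and 45), osteocyte-like (5 and 41), endothelial-like (9 and 17), granulocyte-like (41 and 50), erythroid-like (11 and 44) and B lineage-like cells (17 and 15). Levels are counts per 1000000 UMIs of the set (CPM), in 3' data with no division by gene length. Of the 36 members, 21 had 1 of the 4 compared sets above the other 3 with intervals apart, when both groups were summed.

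**Figure D1:**
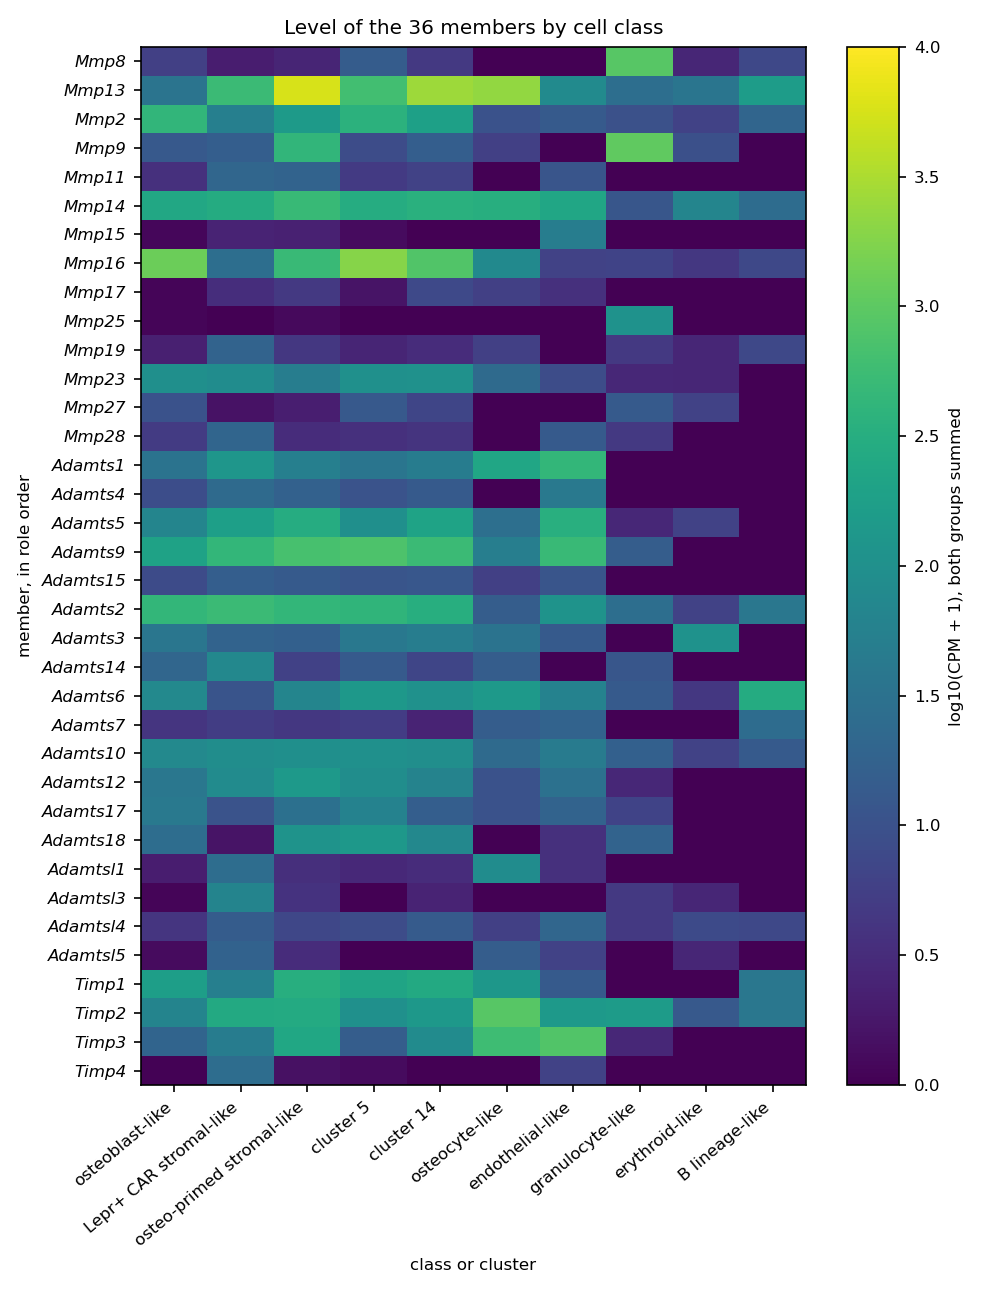
Level of each of the 36 members (rows, in the order of their roles) in each class or cluster (columns), as log10(CPM + 1) with both groups summed. Mmp13 is brightest in osteo-primed stromal-like cells (5681 CPM), Mmp16 in cluster 5 (1848 CPM), and Mmp8, Mmp9 and Mmp25 in granulocyte-like cells.

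Among the collagenases, which cut fibrillar collagen, Mmp13 marked the osteo-primed stromal-like cells. Its level there was 5681 CPM over both groups, against 606 CPM in cluster 5, 541 CPM in Lepr+ CAR stromal-like cells and 34.2 CPM in osteoblast-like cells, which is 166 times from the highest to the lowest set. Osteo-primed cells held 79.5% of the control and 78.4% of the immobilized Mmp13 UMIs. Cluster 14 and the osteocyte-like cells also had much Mmp13, with 2624 and 2246 CPM. A UMI of Mmp13 was seen in 88.8% of control and 93.2% of immobilized osteo-primed cells, with a median of 20 and 21 UMIs per cell. In osteoblast-like cells the shares were 11.7% and 16.6%. In the 28 control and 59 immobilized erythroid-like and B lineage-like cells, which served as a gauge of free RNA, they were 14.3% (95% Clopper-Pearson interval 4.03 to 32.7%) and 14.4% (6.63 to 26.0%), at median depths of 2481 and 2966 UMIs. After thinning to 2000 UMIs per cell, osteoblast-like cells had a Mmp13 UMI in 3.51% and 5.00%, below the gauge, which was not thinned. By this share most osteoblast-like cells cannot be told from free RNA. Their Mmp13 UMIs were unevenly spread, however, with 64.8% of the control and 41.5% of the immobilized UMIs in the 5 highest cells of each group. Mmp8 was at 907 CPM in granulocyte-like cells and at most 13.8 CPM in the 4 compared sets.

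The gelatinases, which cut denatured collagen and basement membrane collagen, lay in different cells. Mmp2 was highest in osteoblast-like cells with 427 CPM, followed by cluster 5 with 371 CPM, osteo-primed cells with 149 CPM and Lepr+ CAR cells with 52.4 CPM, each interval apart from the next. Mmp9 was highest in granulocyte-like cells with 1059.8 CPM, and among the compared sets in osteo-primed cells with 431 CPM, while the other 3 sets had 7.37 to 14.5 CPM. Its osteo-primed UMIs were unevenly spread. In the control pool 1 cell held 417.5 of 819 Mmp9 UMIs (51.0%) and 5 cells held 92.6%, and in the immobilized pool the corresponding shares were 14.2% and 56.8%. The control cell with most Mmp9 had 13506.5 UMIs in all and 17.5 of Mmp13. Of the osteoclast markers, it had 2.5 UMIs of Ctsk and none of Acp5 (an osteoclast phosphatase). It had 0.5 UMIs of the granulocyte marker S100a8 and none of Ptprc. The immobilized cell with most Mmp9 had 7207.5 UMIs in all, with 35.5 of Mmp13, 2.5 of Ctsk, 0.5 of Acp5, 1 of S100a8 and none of Ptprc. The source of the Mmp9 in these cells was not tested.

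Of the membrane-type MMPs, Mmp16 (MT3-MMP) was at 1848 CPM in cluster 5, 1251 CPM in osteoblast-like, 505 CPM in osteo-primed and 26.9 CPM in Lepr+ CAR cells. This is an order different from that of Mmp13, with a fold of 68.8 between the ends. Mmp14 (MT1-MMP, which activates pro-Mmp2) was far more even, with 491 CPM in osteo-primed, 301 in cluster 5, 284 in Lepr+ CAR and 248 in osteoblast-like cells, and the intervals of cluster 5 and Lepr+ CAR cells overlapped. Mmp25, known from neutrophils, was at 109.9 CPM in granulocyte-like cells and at most 0.264 CPM in the compared sets. Mmp15 was at 48.2 CPM in endothelial-like cells and at 0.197 to 1.52 CPM in the compared sets, and Mmp17 was between 0.131 and 3.56 CPM in them.

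The remaining MMPs were low. Mmp23 was the most even, from 48.7 CPM in osteo-primed to 102 CPM in cluster 5. Mmp19, Mmp28 (epilysin) and Mmp11 (stromelysin 3) were highest in Lepr+ CAR cells, with 18.0, 19.1 and 19.6 CPM. The interval of Mmp11 overlapped that of osteo-primed cells (17.5 CPM), and those of Mmp19 and Mmp28 overlapped no other compared set. Mmp27 had 9.30 CPM in osteoblast-like cells and 12.2 CPM in cluster 5, with 0.542 CPM in Lepr+ CAR cells.

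Among the ADAMTS enzymes that act on proteoglycans, Adamts9 was the most abundant and was found in each of the compared sets, with 751 CPM in cluster 5, 684 in osteo-primed, 449.7 in Lepr+ CAR and 202 in osteoblast-like cells, the first 2 with overlapping intervals. Adamts5, the main aggrecanase of mouse cartilage, was highest among the compared sets in osteo-primed cells (298 CPM) and lowest in osteoblast-like cells (65.6 CPM). Adamts1 was highest among them in Lepr+ CAR cells (123 CPM) and higher still in endothelial-like cells (441 CPM). Adamts4 and Adamts15 stayed between 7.34 and 23.5 CPM in the compared sets.

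The procollagen N-propeptidases cut the amino-terminal propeptide from fibrillar procollagens. Adamts2 was nearly uniform, from 418 CPM in cluster 5 to 529.6 CPM in Lepr+ CAR cells, a fold of 1.27. Its relative Adamts14 was at 73.8 CPM in Lepr+ CAR cells and between 5.01 and 20.2 CPM in the other 3 sets. Adamts3 was at most 38.5 CPM in these sets, and reached 107 CPM in erythroid-like cells.

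Of the other ADAMTS genes, Adamts18 showed the sharpest boundary, with 133 CPM in cluster 5, 113 CPM in osteo-primed cells, 26.1 CPM in osteoblast-like cells and 0.650 CPM in Lepr+ CAR cells, where it had 0.5 control and 2.5 immobilized UMIs. Adamts6 was lowest in the same Lepr+ CAR cells (10.1 CPM), at 137 CPM in cluster 5, and at 289 CPM in B lineage-like cells. Adamts12 was highest in osteo-primed cells (138 CPM) and Adamts17 in cluster 5 (57.7 CPM). Adamts10, which acts with fibrillin microfibrils, ranged only from 75.6 to 101 CPM. Adamts7 stayed between 3.21 and 4.33 CPM in the compared sets.

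The ADAMTS-like proteins lack the catalytic domain and are matrix proteins. Among the 4 compared sets, Adamtsl1, Adamtsl3 and Adamtsl5 were set apart in Lepr+ CAR cells. Adamtsl3 was at 62.5 CPM there and at most 2.90 CPM in the other 3 sets, Adamtsl1 at 25.8 against at most 2.50 CPM, and Adamtsl5 at 16.8 against at most 2.24 CPM. Outside the compared sets, Adamtsl1 was higher in the few osteocyte-like cells, at 88.2 CPM (interval 41.3 to 165) from 9.5 UMIs. Adamtsl5 had 13.9 CPM in those cells, from 1.5 UMIs. Adamtsl4 was at 13.8 CPM in Lepr+ CAR cells, with an interval that overlapped that of cluster 5 (7.37 CPM). The inhibitors were divided among the sets. Timp1 was highest in osteo-primed cells (319 CPM) and lowest in Lepr+ CAR cells (52.3 CPM), while Timp4 was nearly restricted to Lepr+ CAR cells among the 4, with 26.2 CPM against at most 0.527 CPM. Timp2 was at 279 CPM in osteo-primed and 269 CPM in Lepr+ CAR cells, with overlapping intervals, and at 905 CPM in osteocyte-like cells. Timp3, which stays bound to the matrix and also blocks ADAMTS enzymes, was at 244 CPM in osteo-primed, 561 CPM in osteocyte-like and 824 CPM in endothelial-like cells.

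**Figure D2:**
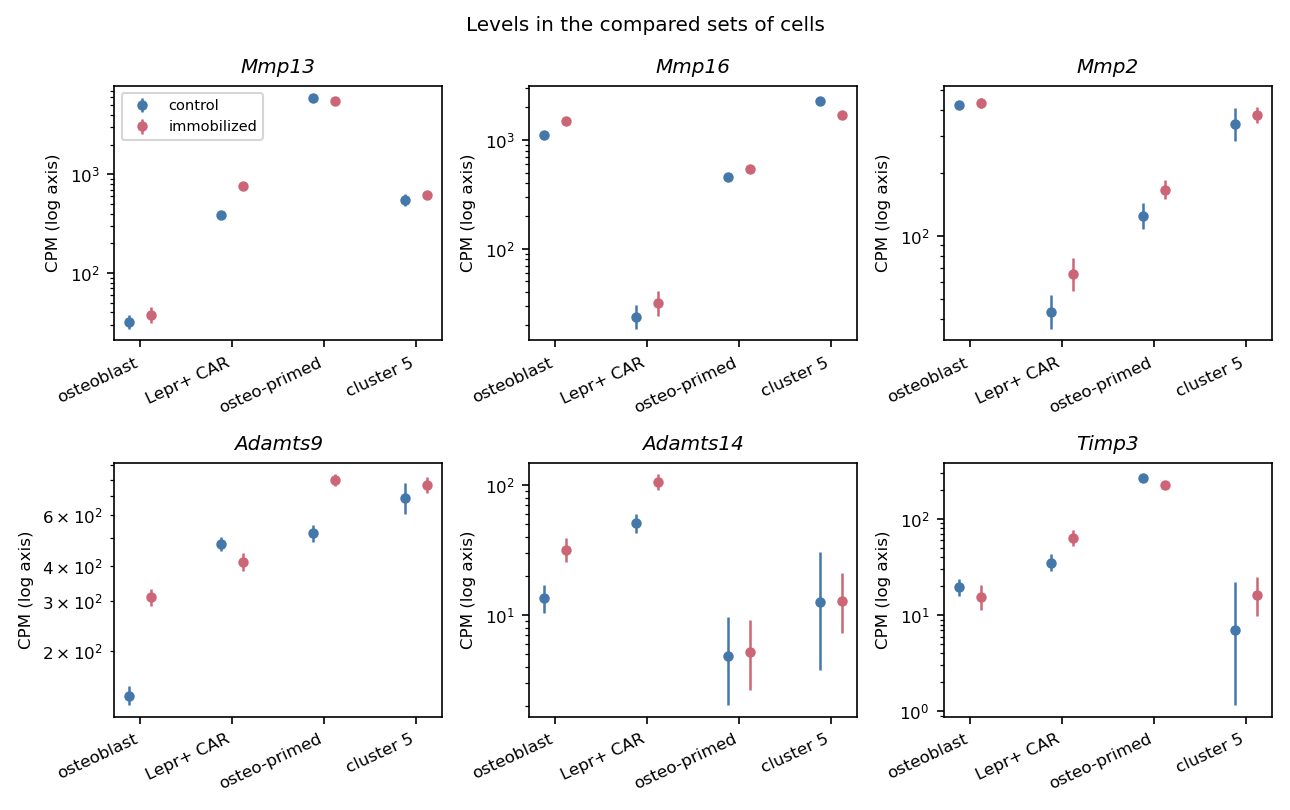
Levels of Mmp13, Mmp16, Mmp2, Adamts9, Adamts14 and Timp3 in the 4 compared sets of cells, as CPM on a log axis with exact Poisson 95% intervals, control in blue and immobilized in red. Mmp13 and Mmp16 differ more between sets than between groups, and Adamts9 in osteoblast-like cells, the set where it is lowest, goes from 139.7 to 309 CPM.

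The groups were then compared within each set, to ask what differed after 2 weeks of hindlimb immobilization. A member entered a comparison with at least 50 UMIs over both groups, and was called when it was past 1.5-fold, on log2 ratios of immobilized over control with 0.5 counts added. In all, 31 of the 36 members entered at least 1 comparison, 14 entered each of the 4, and Adamts7, Mmp8, Mmp15, Mmp17 and Mmp25 entered none. Of the 31, 17 were past the fold in at least 1 set, 12 of them higher and 7 lower, with Adamts5 and Adamts17 in both counts. The 7 include Mmp9, whose call rested on 1 cell. No such count over the 4 sets is given for all genes, so nothing is concluded from it. Within each set, the same calls over all genes serve as the background.

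**Figure D3:**
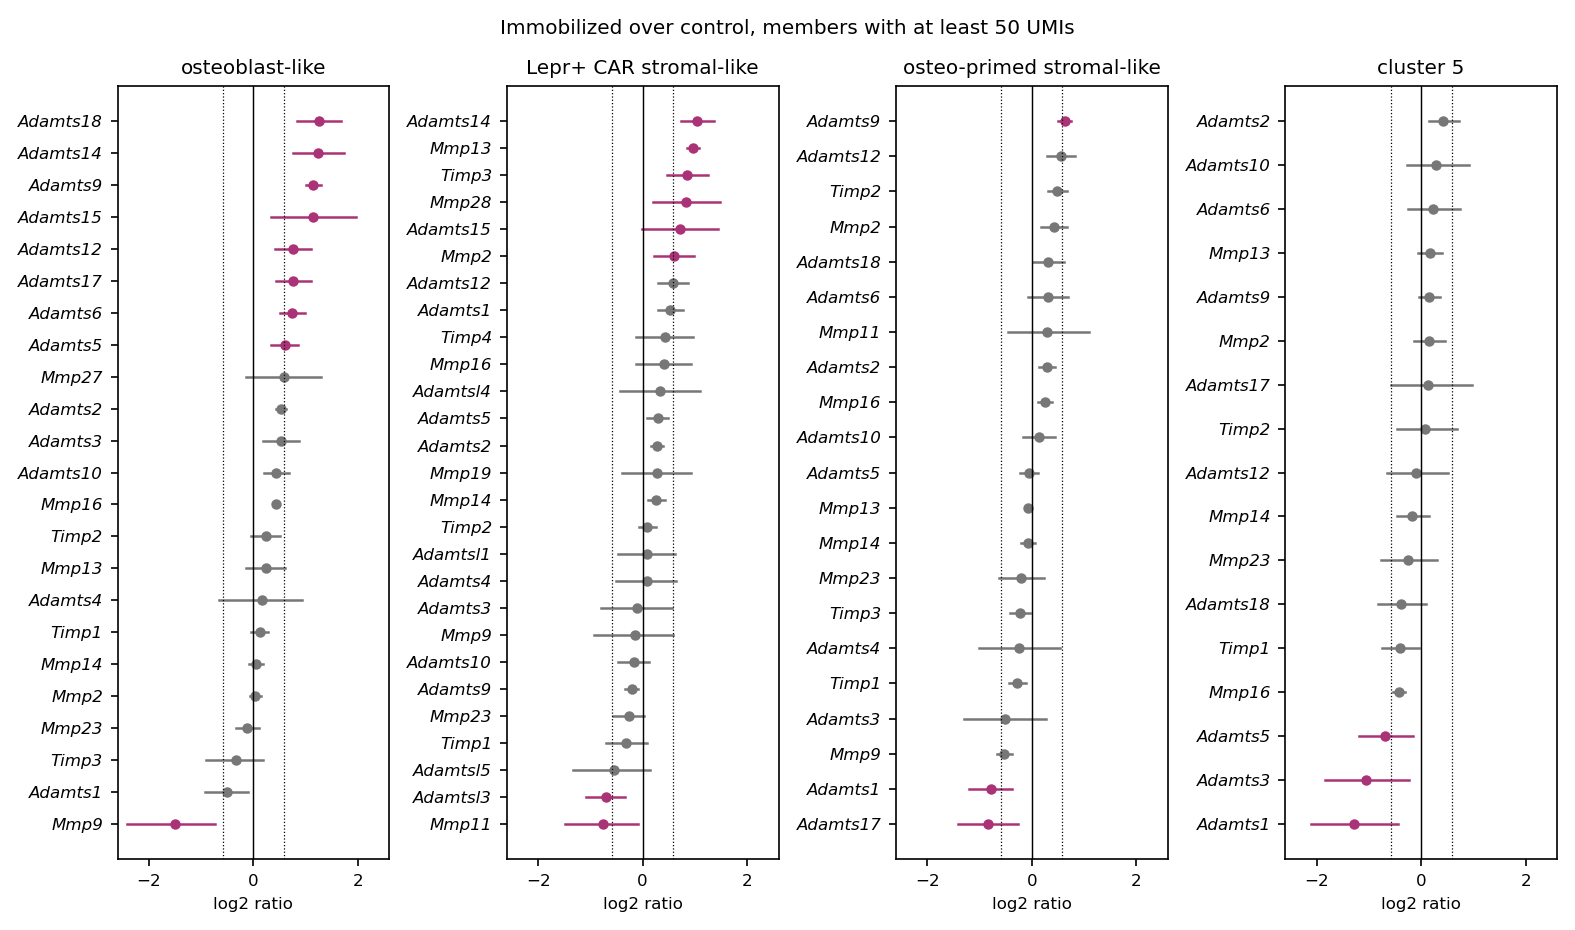
Log2 ratio of immobilized over control for each member with at least 50 UMIs in the 4 compared sets, with 95% intervals for counting error (exact conditional binomial), the dotted lines at 1.5-fold and members past it in purple. In osteoblast-like cells 8 of 23 members lie to the right of the upper line, and in cluster 5 none of 17 does.

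In osteoblast-like cells 8 of 23 members were higher in the immobilized pool past 1.5-fold, all of them Adamts genes, against 13.3% of all 8878 genes tested, and 1 of 23 was lower against 5.05%. The median log2 ratio was 0.44 over the members and 0.15 over all genes, and scaling by the median of gene ratios instead of total counts would lower every value in this set by 0.18. The summed level of the 14 Adamts genes went from 884 CPM (control) to 1416 CPM in immobilized cells (log2 0.68, interval 0.62 to 0.74), that of the 14 Mmp genes from 1943 to 2349 CPM (log2 0.27, 0.23 to 0.32), and that of the Timp genes from 244 to 265 CPM (log2 0.12, -0.01 to 0.25).

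Control osteoblast-like cells had 139.7 CPM of Adamts9 and immobilized ones 309 CPM, for a log2 ratio of 1.15 (interval 1.00 to 1.29). This gene overlaps 9530026P05Rik and A730049H05Rik in the annotation, so reads of these may be counted with it. It was higher in clusters 1, 6 and 7 of this set alike (log2 0.78, 1.27 and 1.00). The procollagen peptidase Adamts14 had 13.5 and 31.9 CPM (log2 1.24, 0.77 to 1.73). Its relative Adamts2, at 386 and 558 CPM, fell short of the fold with a log2 ratio of 0.53 (0.43 to 0.63), and Adamts3 likewise with 0.53 (0.17 to 0.88). Adamts18 had 17.3 and 41.1 CPM (log2 1.25, 0.83 to 1.67), and Adamts15, with 24.5 and 31.5 UMIs in all, had 5.08 and 11.2 CPM (log2 1.14, 0.34 to 1.97). Smaller differences in the same direction were those of Adamts12 (29.6 and 50.4 CPM), Adamts17 (31.7 and 53.8 CPM), Adamts6 (61.2 and 102 CPM) and Adamts5 (55.1 and 83.7 CPM), with log2 ratios of 0.77, 0.76, 0.74 and 0.60. With median-ratio scaling the higher members numbered 4, and without clusters 1 and 7 they numbered 6. With each cluster given the same weight in both groups, Adamts12 was at 0.41 and no longer past the fold.

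The abundant MMPs of osteoblast-like cells differed less. Mmp16 had 1108 and 1497 CPM (log2 0.43, 0.38 to 0.49), and Mmp2 had 423 and 434 CPM with an interval that holds no difference (log2 0.04, -0.07 to 0.14). Mmp14, Mmp23, Timp1, Timp2 and Timp3 likewise had intervals that include 0. Adamts1 was at 36.6 and 25.8 CPM (log2 -0.50, -0.92 to -0.10). Which clusters were counted turned some directions in this set: without clusters 1 and 7 the log2 ratio of Adamts1 was 0.84, that of Timp3 went from -0.34 to 2.03 and that of Mmp13 from 0.24 to -0.92. The only member called lower, Mmp9, rested on 1 cell: it had 15.96 and 5.52 CPM (log2 -1.50), but 71.5 of the 77 control UMIs (92.9%) were in a single cell, and without the highest cell of each group the levels were 1.14 and 4.66 CPM and the log2 ratio 1.95 (0.49 to 3.78).

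Other measures moved with the groups in this set. The share of female cells among those with a call was 95.8% (control) and 75.3% (immobilized), the sum of 15 immediate early and heat shock genes was 4619.6 and 3216 CPM with 4 of 14 tested genes lower and none higher, and the sum of the 10 granulocyte markers, 9 of which were higher, was 75.6 and 184 CPM. The 9 chondrocyte markers summed to 2488 and 821 CPM, most of it Col2a1 (2459 and 794 CPM), although 5 of the 9 were higher. The median mitochondrial share was 5.26% (control) and 6.54% (immobilized). The part of these measures in the results was not tested. In female cells alone, of which there were 385 and 216, 9 of 21 members were higher (15.6% of all genes) and none lower (6.59%), with Adamts9 at log2 1.18 (1.02 to 1.35). Control osteoblast-like cells included only 17 male cells, and among those 3 of 15 members were higher (12.7%) and 2 lower (5.16%).

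In Lepr+ CAR stromal-like cells, Mmp13 and Adamts14 were the members that differed most in favour of the immobilized pool. Of 27 members, 6 were higher against 5.12% of 9383 genes, and 2 were lower against 4.61%. The median log2 ratio was 0.27 over the members and 0.03 over all genes. Control cells had 391 CPM of Mmp13 (interval 368 to 415) and immobilized cells 759 CPM (720.1 to 799), a log2 ratio of 0.96 (0.84 to 1.07). A Mmp13 UMI was present in 39.6% and 52.9% of the cells, and in 31.0% and 40.9% after thinning to 2000 UMIs in the 563 and 343 cells that were deep enough. Its share of all Mmp13 UMIs of the pool was 9.32% and 9.01%, at 617 and 358 cells.

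The propeptidase Adamts14 was at 51.4 and 106 CPM in Lepr+ CAR cells (log2 1.05, 0.73 to 1.37). The inhibitor Timp3 was at 35.3 and 63.8 CPM (log2 0.85, 0.46 to 1.26) and the gelatinase Mmp2 at 43.3 and 65.7 CPM (log2 0.60, 0.23 to 0.98). Each of these 3 had control and immobilized intervals that did not overlap. Mmp28 had 14.4 and 25.8 CPM (log2 0.83, 0.20 to 1.48), and Adamts15, with 32.5 and 36.5 UMIs, had an interval that includes 0 (log2 0.71, -0.01 to 1.44). Just short of the fold were Adamts12 (70.7 and 106 CPM, log2 0.58) and Adamts1 (104 and 151 CPM, log2 0.53).

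Lower in the immobilized Lepr+ CAR cells were Adamtsl3, at 74.2 and 45.5 CPM (log2 -0.70, -1.09 to -0.33), and Mmp11, at 23.6 and 13.8 CPM (log2 -0.75, -1.49 to -0.09). Adamts9 was slightly lower too, at 476 and 411 CPM (log2 -0.21, -0.34 to -0.08). The summed level of the 4 Adamtsl genes was 131 and 101 CPM (log2 -0.38, -0.64 to -0.12). That of the Mmp genes was 891 and 1328 CPM (log2 0.58), and without Mmp13 500.3 and 569.5 CPM (log2 0.19, 0.07 to 0.30). The family's difference in this set thus lay mostly in Mmp13.

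The clusters that make up the Lepr+ CAR set differed in Mmp13 and in their share of each pool. Clusters 13 (206 control cells) and 0 (199) were the largest in the control, and clusters 12 (115 immobilized cells, against 15 control cells) and 0 (100) in the immobilized pool. Mmp13 was higher in the immobilized cells of cluster 0, at 253 and 658 CPM (log2 1.38, 1.12 to 1.63), of cluster 13, at 614 and 1153 CPM (log2 0.91, 0.72 to 1.10), and of cluster 4, at 15.1 and 72.1 CPM (log2 2.22, 0.84 to 3.79). In cluster 10 it was lower, at 707 and 153 CPM (log2 -2.19, -2.78 to -1.67). With each cluster given the same weight in both groups, the log2 ratio of the whole set was 0.65. The same weighting turned Mmp2 to -0.45 and Adamts15 to -0.21, and left Timp3 at 0.30. In the control each cluster of the set was mostly of 1 sex: among cells with a call, clusters 0 and 4 had 161 and 93 male against 4 and 1 female cells, and cluster 13 had 198 female and 0 male cells. Without clusters 9, 10 and 12, which leaves these 3, Mmp13 was at 1.06, Adamts14 at 0.92 and Adamtsl3 at -0.31.

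**Figure D4:**
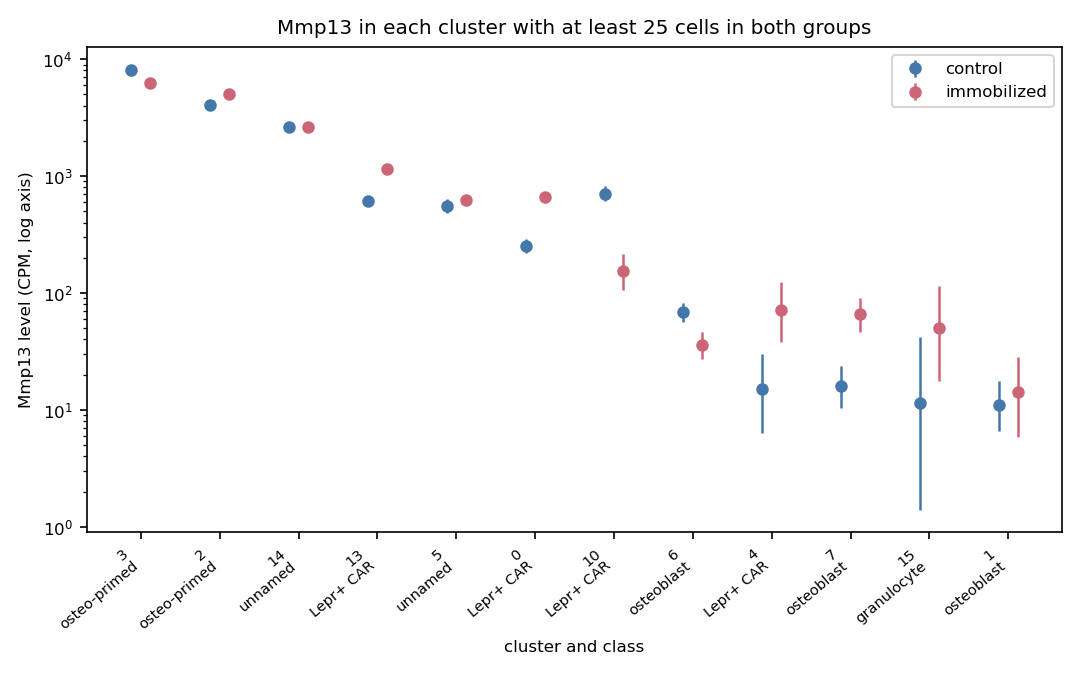
Mmp13 level (CPM, log axis) in each cluster with at least 25 cells in both groups, control in blue and immobilized in red, bars showing exact Poisson 95% intervals. Clusters 3 and 2 of the osteo-primed class are highest in both groups. In cluster 10 of the Lepr+ CAR class the control point (707 CPM) is above the immobilized one (153 CPM), whereas in clusters 0, 4 and 13 it is below.

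Sex and stress genes moved with the groups in the Lepr+ CAR set. Female cells made up 51.1% of the control and 29.9% of the immobilized cells with a call. Within female cells (281 and 94) Mmp13 was at 612 and 969.8 CPM (log2 0.66, 0.50 to 0.83), and within male cells (269 and 220) at 167 and 687 CPM (log2 2.04, 1.81 to 2.27), so that it was past the fold in both. Adamts14 was past the fold in both as well (log2 1.48 female and 0.85 male), and so was Timp3 (1.04 and 0.72). Mmp2 was higher only in the male cells by these calls (0.01 and 1.18), and Adamts5 likewise (-0.03 and 0.99), and the difference between the sexes was not tested. In female cells 3 of 17 members were higher (7.36% of all genes) and 2 lower (7.81%), and in male cells 7 of 19 were higher (6.54%) and 2 lower (4.60%). Each of the 15 immediate early and heat shock genes was lower in the immobilized cells, with a sum of 2168 and 839 CPM. The granulocyte markers summed to 180.05 and 376 CPM with 9 of 10 higher, and the 8 erythroid markers to 168 and 479 CPM, all higher. The 9 osteoblast markers summed to 7972 and 4769 CPM with 2 higher, and the 6 adipocyte markers to 35.3 and 91.5 CPM with 5 higher. The part of these in the member ratios was not tested.

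In osteo-primed stromal-like cells, where Mmp13 is highest, few members differed past the fold. Of 21 members, 1 was higher (4.91% of 8509 genes) and 2 were lower (3.97%), and the median log2 ratio was -0.06 against 0.03 over all genes. Control cells had 5859 CPM of Mmp13 and immobilized cells 5556 CPM, for a log2 ratio of -0.08 (-0.12 to -0.04). The 2 clusters of this class went opposite ways: Mmp13 was at 4034 and 5024 CPM in cluster 2 (log2 0.32, 0.26 to 0.38) and at 8022 and 6246 CPM in cluster 3 (log2 -0.36, -0.41 to -0.31). Osteo-primed cells were 15.2% of kept control and 25.8% of kept immobilized cells.

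Adamts9 was the member called higher in osteo-primed cells, at 518 and 800.01 CPM (log2 0.63, 0.51 to 0.75). It was higher in both clusters (log2 0.42 and 1.09) and in both sexes (0.62 female and 0.59 male). Lower were Adamts17, at 38.5 and 21.5 CPM (log2 -0.84, -1.42 to -0.27), and Adamts1, at 69.3 and 40.1 CPM (log2 -0.79, -1.21 to -0.37). Both were unevenly spread: the 5 highest cells held 47.5% (control) and 47.9% (immobilized) of the Adamts17 UMIs, and 48.1% and 33.0% of those of Adamts1. Timp2 (226 and 317 CPM, log2 0.49) and Mmp2 (124 and 166 CPM, log2 0.42) were higher by less than the fold, with intervals above 0. Timp1 was at 356 and 294 CPM (log2 -0.28, -0.45 to -0.11) and Timp3 at 267 and 227 CPM (log2 -0.24, -0.43 to -0.05).

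Mmp9 in osteo-primed cells was at 526 and 365 CPM (log2 -0.52, -0.67 to -0.38), and its direction depended on single cells. Without the highest cell of each group the levels were 259.9 and 315 CPM and the log2 ratio 0.27 (0.10 to 0.46). Cells with at least 10 Mmp9 UMIs numbered 5 (control) and 17 (immobilized), and a Mmp9 UMI was found in 11.9% (interval 7.90 to 17.0%) and 18.1% (14.2 to 22.4%) of the cells.

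**Figure D5:**
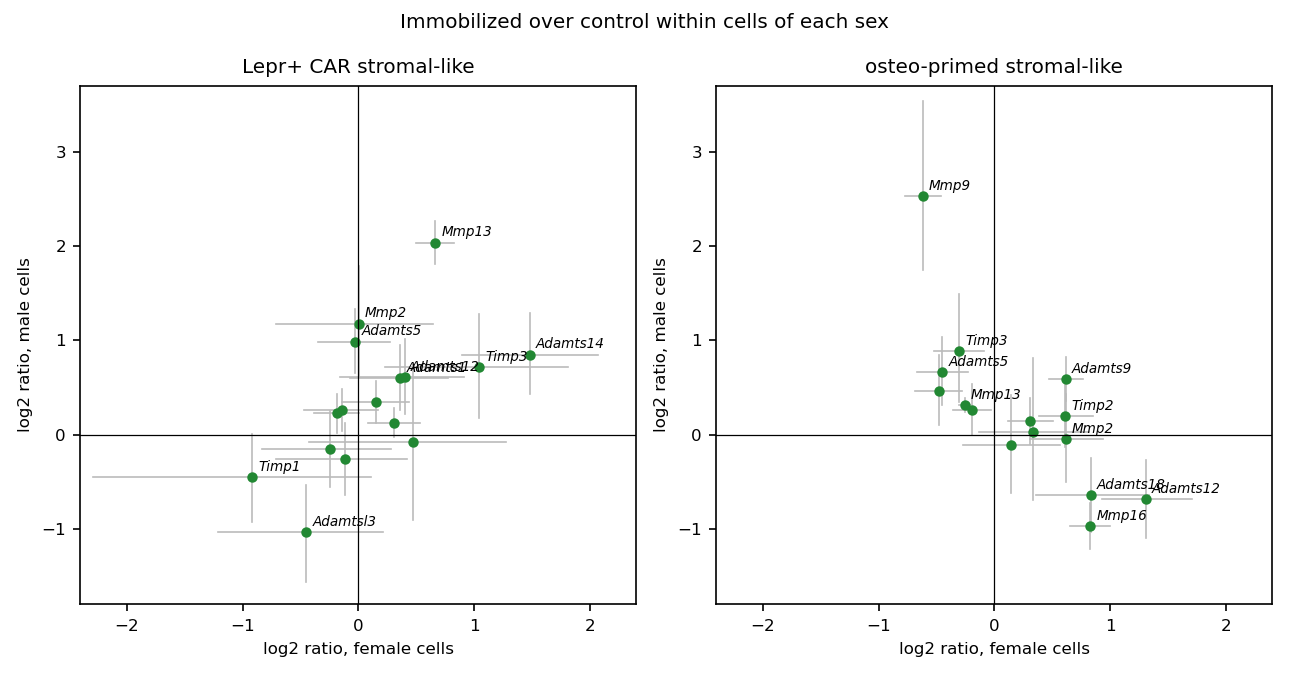
Log2 ratio of immobilized over control in female cells (horizontal axis) and male cells (vertical axis) for members with at least 50 UMIs in both, in Lepr+ CAR stromal-like (left) and osteo-primed stromal-like cells (right), with 95% intervals for counting error in grey; named are members past 1.5-fold in either sex, and Mmp13. In Lepr+ CAR cells Mmp13, Adamts14 and Timp3 lie above 0 on both axes, and in osteo-primed cells Mmp16, Adamts12 and Adamts18 lie right of 0 and below it.

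The small pooled ratios of osteo-primed cells covered ratios of opposite sign in the sexes. Female cells made up 66.7% of the control and 57.0% of the immobilized cells with a call (132 and 187 female, 66 and 141 male). Mmp16 was at 377 and 669.7 CPM in female cells (log2 0.83, 0.66 to 1.00) and at 669.8 and 342 CPM in male cells (log2 -0.97, -1.22 to -0.73). Adamts12 had log2 ratios of 1.31 (0.93 to 1.71) and -0.69 (-1.10 to -0.27), and Adamts18 of 0.83 (0.36 to 1.34) and -0.64 (-1.04 to -0.25). The opposite order, lower in female and higher in male cells, was seen for Timp3 (-0.30 and 0.89), Adamts5 (-0.45 and 0.66), Timp1 (-0.48 and 0.46) and Mmp13 itself (6214 and 5203 CPM in female, 5090.3 and 6324 CPM in male cells, log2 -0.26 and 0.31). Past the fold, 6 of 18 members were higher in female cells (7.02% of all genes) and 3 lower (6.64%), and 4 of 15 were higher in male cells (5.32%) and 3 lower (4.25%). The number of animals behind each sex is unknown, so that a sex and a single animal cannot be told apart here. Of the immediate early and heat shock genes, 6 of 14 tested were lower and none higher in the class as a whole (sum 3980.3 and 3004 CPM). The 9 pericyte or smooth muscle markers summed to 989 and 471 CPM with 2 higher, the 9 chondrocyte markers to 419 and 238 CPM with 5 higher, and the 10 granulocyte markers to 115 and 261 CPM with 8 higher. The part of these in the member ratios of osteo-primed cells was not tested.

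Cluster 5, in which Mmp16 is among the leading genes, was smaller in the control pool, with 51 and 156 cells. None of 17 members was higher past the fold (5.26% of 4772 genes) and 3 were lower (5.91%), and the median log2 ratio was -0.11 over the members and -0.03 over all genes. The 3 were Adamts1 at 63.9 and 26.2 CPM (log2 -1.29, -2.11 to -0.44), Adamts3 at 63.9 and 30.8 CPM (log2 -1.06, -1.84 to -0.23), and Adamts5 at 136 and 85.0 CPM (log2 -0.69, -1.19 to -0.16). Adamts1 and Adamts3 had only 23 control UMIs each. Mmp16 was at 2302 and 1711 CPM (log2 -0.43, -0.55 to -0.31), in contrast to osteoblast-like cells, where it was higher in the immobilized pool. Though unnamed, the cluster also held osteoblast markers, and the 9 summed to 62600 (control) and 71879 CPM (immobilized), with 5 higher. The same sum was 145872 and 119425 CPM in osteoblast-like cells, and 14651 and 14982 CPM in osteo-primed cells. Mmp13 was at 554 and 622 CPM with overlapping intervals. In female cells of the cluster none of 15 members was higher (8.49% of all genes) and 2 were lower (7.79%), and in its 13 control and 30 immobilized male cells 3 of 7 were higher (8.76%) and 1, Mmp13, was lower (12.2%). Of the cluster as a whole, 2 of 12 tested immediate early and heat shock genes were higher and none lower, and the 10 granulocyte markers summed to 109.8 and 222 CPM with 7 higher, whose part in the cluster 5 ratios was not tested.

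Genes that act with the members were followed in 5 lists. The shares of all genes past the fold were 13.3% higher and 5.05% lower in osteoblast-like cells, and 5.12% and 4.61% in Lepr+ CAR cells. They were 4.91% and 3.97% in osteo-primed cells, and 5.26% and 5.91% in cluster 5. With 6 to 15 genes tested per list and set, the counts below are not read as results about a list. Of other metalloproteases and the enzymes that activate them, such as the ADAM sheddases and Furin, 2 of 13 tested were higher in osteoblast-like cells and none lower. They were Adam10 at 159 and 241 CPM, and Adam19 at 6.11 and 9.26 CPM, whose interval includes 0 (log2 0.60, -0.22 to 1.41). None of 12 in Lepr+ CAR and none of 13 in osteo-primed cells was past the fold. In cluster 5, 1 of 10 was lower (Adam17, 61.1 and 34.2 CPM). Of serine and cysteine proteases of the matrix, none was higher in any of the 4 sets. Htra1, a secreted serine protease, was lower in Lepr+ CAR (189.7 and 112 CPM), osteo-primed (169 and 91.1 CPM) and cluster 5 cells (69.5 and 26.6 CPM). The other genes called lower in this list were Prss23 in Lepr+ CAR cells and Prss35 in osteoblast-like cells (1 of 8, 2 of 7, 1 of 7 and 1 of 6 tested lower in osteoblast-like, Lepr+ CAR, osteo-primed and cluster 5 cells).

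Of the other protease inhibitors and clearance receptors, Serping1 and A2m were lower in osteoblast-like cells and Serpine2 was higher (272 and 419.98 CPM), and in osteo-primed cells 2 of 9 were lower, the broad inhibitor A2m at 125 and 61.1 CPM and Serping1 at 152 and 83.7 CPM. In Lepr+ CAR cells Lrp1, a receptor that clears proteases and their complexes, was higher at 506 and 785 CPM and Tfpi2 lower, out of 11. Tfpi2 had 47.5 and 19 UMIs there and an interval that includes 0 (log2 -0.76, -1.63 to 0.01). In cluster 5, 1 of 7 was lower (Serping1, 72.2 and 20.4 CPM).

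Of 15 tested proteoglycan and glycoprotein substrates in osteoblast-like cells, 6 were higher (13.3% of all genes) and 2 lower (5.05%). Among the higher were Spp1 (osteopontin, 1069.5 and 2579 CPM), Fmod (6.11 and 14.6 CPM) and Vcan (versican, 7.88 and 17.1 CPM). The lower were Lum at 922 and 424 CPM and Dcn. In Lepr+ CAR cells 4 of 14 were higher, led by Fn1 (12.6 and 29.3 CPM) and Fbn1 (fibrillin 1, 1096 and 2371 CPM), and 3 were lower, led by Comp (44.4 and 14.9 CPM). In osteo-primed cells 1 of 15 was higher (Fmod, 9.95 and 36.5 CPM) and 3 were lower, and in cluster 5 1 of 11 was higher (Spp1, 4468 and 6951 CPM) and 2 lower.

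Of the factors known to act on the Mmp13 gene, 3 of 15 were higher in osteoblast-like cells (13.3% of all genes), with Jun lower. The 3 were Fosl2 (25.3 and 45.4 CPM), Osmr and Runx2 (1056 and 1677 CPM). The interval of Osmr includes 0 (log2 0.67, -0.01 to 1.35). In Lepr+ CAR cells, where Mmp13 was higher, 5 of 15 were lower (4.61% of all genes), the AP-1 genes Jun (359 and 114 CPM), Fosb (333 and 120.2 CPM), Junb, Fos and Jund. The vitamin D receptor Vdr (56.1 and 306 CPM) and the oncostatin M receptor Osmr (109 and 194 CPM) were higher there. In osteo-primed cells only Jun was past the fold (858 and 540.1 CPM), out of 15 tested, and in cluster 5 Fos and Jund were higher, out of 12.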

How the data were processed

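The deposited values are raw UMI counts for each gene and barcode, which the authors made with Cell Ranger 7.0.0 on mm10 per the submitters' processing notes. The annotation release, and whether intronic reads and strand were used, are not given in the sources used here. Values of members that overlap another gene in GENCODE vM21 (Timp1, Timp2, Timp3, Timp4, Adamts4, Adamts7, Adamts9, Adamtsl1, Mmp11, Mmp19, Mmp25 and Mmp28) are therefore uncertain. Genes whose symbols begin with Gm or Mir were left out of this search, so further members may overlap such genes. All 36 members matched that annotation.

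Cells needed 500 detected genes and a mitochondrial share below 10%, and 18 control and 9 immobilized Scrublet doublets were removed. The gene limit was missed by 90 control and 126 immobilized barcodes, and the mitochondrial limit was reached by 146 and 300. The median mitochondrial share of the kept cells was 3.36% (control) and 4.40% (immobilized). The part of this difference in the member ratios was not tested. The lanes (control 10732720 and 10860328 UMIs, immobilized 9960011 and 10084134) were averaged. Their counts overlapped by 79.0% and 75.5% of the lane 1 UMIs, taking the smaller count for each gene and barcode. This compares counts and does not match single molecules. Cells were clustered with Leiden in scanpy 1.11.5 (2000 variable genes without the members, 30 principal components, 15 neighbours, resolution 1) into 18 clusters. A cluster took the name of the fixed marker list with most markers above 2-fold, at least 3 of them and 30% of the list. This scoring was chosen with the clusters in view: a first rule had named cluster 7 osteocyte-like, and at smaller pseudocounts Col2a1 was the only listed marker among the leading genes of cluster 1, so values without clusters 1 and 7 are given. A cell's sex was called from Xist against Ddx3y, Eif2s3y, Kdm5d and Uty. Sets with at least 50 cells in both groups were compared by summed counts scaled to CPM, with exact Poisson intervals for levels, Clopper-Pearson intervals for shares and conditional binomial intervals for ratios, in scipy 1.17.1, which cover counting error only. The ratios, the fold calls and the intervals were tried on simulated summed counts with counting error only. This simulation held no spread between cells or animals, so it cannot show how the procedure fares with such spread.

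Members described are those with at least 50 UMIs in a compared set, and pathway genes are named by the largest ratio. The members and gene lists were chosen with earlier results of these data known, and the comparison of cluster 5, the list of immediate early and heat shock genes, and the values without single cells or clusters were added after seeing the data. Alternatives were other cell filters, resolutions, UMI minimums, folds and scalings, each lane alone, 1 sex, and 1 cluster mix. One listed gene of a background list is not reported here, so that list has no count in osteoblast-like cells.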

Additional observations from a re-analysis of the deposited data

Results flagged for a closer look

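For some members the ratio of immobilized to control had opposite signs in different sets of cells, with both intervals clear of 0. These results were flagged for that contrast alone, and the difference between the sets was not tested, since each group is 1 pool.

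Across the compared sets, Mmp13 had a log2 ratio of 0.96 in Lepr+ CAR stromal-like cells and -0.08 in osteo-primed stromal-like cells. Timp3 had 0.85 and -0.24 in the same sets. Adamts9 was at 1.15 in osteoblast-like, -0.21 in Lepr+ CAR and 0.63 in osteo-primed cells. Adamts1 was at 0.53 in Lepr+ CAR cells, against -0.50 in osteoblast-like, -0.79 in osteo-primed and -1.29 in cluster 5 cells. Adamts17 was at 0.76 in osteoblast-like and -0.84 in osteo-primed cells. Cluster 5 had the opposite sign for Mmp16 (-0.43, against 0.43 in osteoblast-like and 0.25 in osteo-primed cells), for Adamts3 (-1.06, against 0.53 in osteoblast-like cells) and for Adamts5 (-0.69, against 0.60 in osteoblast-like and 0.29 in Lepr+ CAR cells).

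Between female and male osteo-primed cells, the signs differed for Mmp9 (-0.62 and 2.53), Mmp13 (-0.26 and 0.31), Mmp16 (0.83 and -0.97), Timp1 (-0.48 and 0.46), Timp3 (-0.30 and 0.89), Adamts5 (-0.45 and 0.66), Adamts12 (1.31 and -0.69) and Adamts18 (0.83 and -0.64). Mmp9 rested on 12.5 control UMIs in the male cells.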

How the results depend on the processing

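No paired analysis was possible because the replicate numbers name sequencing lanes of 1 pool per group. Of 994 recomputed member ratios (88 ratios, up to 15 settings), 863 stayed within the counting interval of the reported ratio, 120 moved out of it, and 11 of members past the fold changed sign. The total includes each lane alone, where all 88 stayed, but lanes of 1 pool that share most counts are no independent check. In male cells 39 stayed, 46 moved out and 3 changed sign. The counts were 66, 20 and 2 in female cells, and 53, 16 and 2 with the stricter cell filter. The members with 1 compared set above the others numbered 21, and 22 with either lane alone. In osteoblast-like cells the 8 higher members became 4 with median-ratio scaling, 5 with a minimum of 200 UMIs, 4 at 2-fold and 3 in male cells, and the 1 lower became 2 with median-ratio scaling, in male cells, without clusters 1 and 7 or with the looser cell filter, and 0 with 200 UMIs or in female cells. In Lepr+ CAR cells the 6 higher became 1 at 2-fold and 3 in female cells, and the 2 lower became 1 with 200 UMIs or the stricter filter, 0 at 2-fold and 1 to 3 with either lane alone. In osteo-primed cells the 1 higher became 0 at 2-fold or with the looser filter, 6 in female and 4 in male cells, 3 at resolution 2.0 and 1 to 2 with either lane alone, and the 2 lower became 4 with 20 UMIs, with doublets kept or at resolution 0.5, 0 with 200 UMIs or at 2-fold, and 1 with the member genes clustered. In cluster 5 the 0 higher became 1 with 20 UMIs and 3 in male cells, and the 3 lower became 0 with 200 UMIs and 1 in male cells. Among members past the fold, the ratios that changed sign were Mmp9 in osteoblast-like cells (2.07 in female cells, 3.30 with the stricter filter, 1.95 without the highest cells), Adamts18 (-0.66) and Adamts15 (-0.94) in male osteoblast-like cells, Mmp2 in Lepr+ CAR cells (-0.45 with 1 cluster mix), Adamts15 there (-0.21 with 1 cluster mix, -1.62 in female cells, -0.87 without clusters 9, 10 and 12, -0.74 with the stricter filter), and Adamts5 in male cluster 5 cells (0.11). Members short of the fold changed sign as well. Over the settings, Timp3 ranged from -1.05 to 2.03 and Mmp13 from -2.90 to 1.23 in osteoblast-like cells, and Mmp9 from -0.75 to 2.53 in osteo-primed cells. Fewer cells or genes enter the sex, filter and UMI settings, and the cause was otherwise not tested. Members under 50 UMIs in a set could not be compared at this depth.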

Other observations

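Sets of cells too small to compare also held members, which are given as values. In granulocyte-like cells (41 control and 50 immobilized), Mmp9 was at 1259 CPM (control) and 744 CPM (immobilized), and the summed Mmp genes at 2616 and 1409 CPM. Granulocyte-like cells had a median of 3012.5 and 1522.75 UMIs. In endothelial-like cells (9 and 17) the summed Timp genes were at 769 and 1172 CPM and the summed Adamts genes at 1333 and 1896 CPM. Cycling cells of cluster 14 (27 and 45) had nearly the same Mmp13 in both pools, 2631 and 2617 CPM (log2 -0.01, interval -0.14 to 0.13). Osteocyte-like cells numbered 5 and 41, so that their Mmp genes (5764 and 2197 CPM) rested on 86 control UMIs from 5 cells.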
